A study of Homo sapiens with 8 samples.

Results

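The immunoproteasome and peptide loading genes were examined as 10 genes, PSMB8, PSMB9, PSMB10, PSME1, PSME2, TAP1, TAP2, TAPBP, ERAP1 and ERAP2, of 19970 protein-coding genes annotated on the chromosomes used. They were chosen by name, and each was described by the open chromatin peaks within 1000 bp of any of its annotated transcription start sites, and by all peaks in its gene body or within 10000 bp of it. Open chromatin had been mapped by FAIRE-seq, in which formaldehyde-fixed chromatin is sheared and the DNA that is free of protein is recovered by phenol-chloroform extraction and sequenced. The cells were U2OS, a human osteosarcoma line, in 4 clones grown in the same medium: WT_4 and WT_5 carried ZBTB48, and KO_C5 and KO_D2 were ZBTB48 knockout clones. ZBTB48 encodes a zinc finger protein that binds telomeric repeats and some promoters. Every clone was measured without treatment and with IFNγ, which per the labels was added at 250 U/ml for 24 hours, giving 4 groups of 2 libraries. The study's own text gives a longer exposure for FAIRE-seq than the labels, so the duration is uncertain. Each genotype is represented by 2 clones, so differences between clones and between genotypes rest on the same 4 clones.

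In cells without interferon, proteins are cut by the constitutive proteasome, whose active subunits are encoded by PSMB5, PSMB6 and PSMB7. IFNγ, acting in part through IRF1, induces the replacement subunits encoded by PSMB8, PSMB9 and PSMB10, and the PA28 activator encoded by PSME1 and PSME2. The resulting peptides are carried into the endoplasmic reticulum by the TAP1-TAP2 transporter, held next to MHC class I molecules by tapasin (TAPBP) and trimmed by the aminopeptidases ERAP1 and ERAP2. The binding element of interferon-responsive IRF complexes is called the ISRE. Its core was searched here as GAAANNGAAA on both strands.

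Every one of the 10 genes had such an ISRE core within 500 bp of the canonical start site, against 9.94% of 19962 genes searched in the same way. In the shorter RefSeq promoters of build GRCh38.p14, which run from 250 bases before to 50 bases after a gene's start, 7 of the 10 held one, against 3.18% of 15315. The core nearest to the start site of each gene is shown within 30 bases of GRCh38 sequence, written 5′ to 3′ on the strand that carries it, with the core in capitals, since the peaks described later differ in whether they cover it.
PSMB8: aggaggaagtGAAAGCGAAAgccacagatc
PSMB9: aggggaaagcGAAATCGAAAgcggccgcct
PSMB10: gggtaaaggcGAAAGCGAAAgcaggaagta
PSME1: accgcgaaggGAAAGCGAAAgcggtagggc
PSME2: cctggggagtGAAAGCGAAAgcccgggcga
TAP1: ccatttagggGAAAGCGAAAtcgaaagcgg
TAP2: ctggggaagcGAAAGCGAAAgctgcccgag
TAPBP: ggaggaaagtGAAAGTGAAAggaggaagag
ERAP1: ccccaggaccGAAAGTGAAAgtggagcccg
ERAP2: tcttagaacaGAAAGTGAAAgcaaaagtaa

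The PSMB8 core lay at chr6:32844042-32844051, at the canonical start site, and the PSMB10 core at chr16:67936862-67936871, with its centre at -16 bp from the start. Those of PSME1 (chr14:24136199-24136208), PSME2 (chr14:24146629-24146638), TAP2 (chr6:32838788-32838797), TAPBP (chr6:33314083-33314092), ERAP1 (chr5:96807934-96807943) and ERAP2 (chr5:96876470-96876479) had centres between -53 and 9 bp from the start site. The cores assigned to TAP1 and PSMB9 overlap each other at chr6:32853823-32853838, because these genes are transcribed away from a shared promoter. Among the 10 genes, PSMB8 alone had the GAS sequence TTCNNNGAA, another interferon-responsive element, within 500 bp of the start, and none had it in the shorter promoter. It was found in 20.3% of the 19962 windows and in 6.97% of the shorter promoters.

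The shared promoter is shown because it carried the strongest peaks of PSMB9 and TAP1 in every library. The 300 bases at chr6:32853817-32854116, plus strand of GRCh38, begin just upstream of the outermost annotated TAP1 start and lie outside annotated exons. Capitals mark, in order, TTAGGG running directly into 2 overlapping ISRE cores, CCAAT and the GC box GGGCGG.
PSMB9-TAP1: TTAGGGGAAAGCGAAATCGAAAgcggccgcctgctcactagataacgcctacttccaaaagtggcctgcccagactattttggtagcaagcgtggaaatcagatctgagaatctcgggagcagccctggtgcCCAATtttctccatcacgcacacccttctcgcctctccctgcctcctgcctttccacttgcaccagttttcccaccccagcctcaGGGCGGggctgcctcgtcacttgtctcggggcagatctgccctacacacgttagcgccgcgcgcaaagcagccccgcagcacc

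The hexamer TTAGGG, the telomeric repeat unit, was present in the RefSeq promoter of TAP1 alone among the 10 genes and in 8.69% of all promoters searched. Within 500 bp of the canonical start it was present at 5 of the 10 (PSMB9, PSMB10, PSME1, TAP1 and ERAP1), beside 27.8% of 19962 genes. In that window GTGAGT was present at 2 of the 10, beside 40.8%. The shares that follow are for the RefSeq promoters. CCAAT was present in 3 of the 10 (36.6% of all promoters), GGGCGG in 7 of the 10 (59.2%) and GTGAGT in PSMB8 alone (11.3%). These matches describe the sequence and were not tested for binding.

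The 8 lists held between 16730 and 37533 peaks and no library totals. Untreated WT_4, WT_5, KO_C5 and KO_D2 had 21715, 29567, 19255 and 16730 peaks. The treated libraries of the same clones had 18913, 37533, 27457 and 24727. Each peak has a fold enrichment, which is the number of fragments at its summit over the local background, and a -log10 p. The control behind that background is not given. To compare lists of different depth, the -log10 p of the strongest promoter peak was expressed as a percentile within its own list, with 0 where no peak was listed. This removes differences in list length and depth only in part. The median fold enrichment at promoters found in all 8 libraries ranged from 19.6 to 42.4, and the median local background there was 1.02 to 1.77 fragments in the WT libraries and 1.98 to 3.32 in the KO libraries. The weakest listed peak of a library had 5 or 6 fragments at its summit, so an absent peak means that no such enrichment was listed, not that chromatin was closed. RUNX2 and COL1A1, expressed in osteoblast-like cells, had a promoter peak in all 8 libraries, SPARC in 5 and ALPL in 4, and the blood and liver genes PTPRC, CD3E and ALB in none. The epithelial gene EPCAM also had a peak in all 8. MTFP1, a reported ZBTB48 target, had a promoter peak in 3 WT libraries and 1 KO library, and the peak at the ZBTB48 promoter, present in all 8, does not test the knockout.

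Between 7 and 9 of the 10 genes had a promoter peak in each library. PSMB9, PSMB10, PSME1, PSME2, TAP1, TAP2 and ERAP1 had one in all 8, PSMB8 in 7 and TAPBP in 4, whereas ERAP2 had none. PSMB8 and TAPBP had a peak in more IFNγ-treated than untreated libraries, and none of the 10 in fewer. Of the 14737 protein-coding genes with a promoter peak in any library, 16.3% likewise had more peaks after IFNγ. Without the untreated KO_C5 library, in which PSMB8 had no peak, only TAPBP remained with a larger share of IFNγ-treated libraries.

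PSMB8, which takes the place of the chymotrypsin-like subunit PSMB5 (chr6:32840717-32844679, minus strand), had a weak or no promoter peak in 3 of the 4 untreated libraries. Its percentile was 11.8 in WT_4, 72.6 in WT_5, 0 in KO_C5 and 2.55 in KO_D2 without treatment. With IFNγ it was 38.4 in WT_4, 79.5 in WT_5, 67.5 in KO_C5 and 49.1 in KO_D2. It was thus higher after IFNγ in all 4 clones, but the untreated WT_5 library lay above 3 of the 4 treated ones. The mean was 21.7 ± 34.3 (SD, n = 4) without and 58.6 ± 18.4 (SD, n = 4) with IFNγ, a difference within the spread of the libraries (exact permutation test, two-sided, p = 0.114). That test does not pair the libraries by clone. Sign flips of the changes of the 4 clones gave an exact p of 0.125, the smallest they allow. The summit of the strongest peak held 8, 52 and 11 fragments in untreated WT_4, WT_5 and KO_D2, and 18, 71, 70 and 35 fragments in treated WT_4, WT_5, KO_C5 and KO_D2.

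The PSMB8 peaks also differed in position. In all untreated libraries with a peak, and in treated WT_4, the peak lay upstream of the canonical PSMB8 start, over PSMB8-AS1 and close to an alternative PSMB9 start. In treated WT_5 and KO_D2 a single peak of 1170 and 1110 bp extended across the PSMB8 start, and in treated KO_C5 a second peak of 237 bp with a fold enrichment of 8.03 covered it. The ISRE core of PSMB8 was therefore covered by a peak in 0 of 4 untreated and 3 of 4 treated libraries. FAIRE has no strand, so these peaks cannot be divided between PSMB8, PSMB8-AS1 and PSMB9.

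PSMB10, which takes the place of the trypsin-like subunit PSMB7 (chr16:67934506-67936864, minus strand), had its strongest peak inside the gene. This peak, at an internal start site about 1 kilobase from the canonical one, was present in all 8 libraries. Its percentile was 61.4 in WT_4, 85.0 in WT_5, 39.4 in KO_C5 and 62.7 in KO_D2 without treatment, and 52.6, 88.7, 85.8 and 87.7 in the same clones with IFNγ. With IFNγ it was higher in WT_5, KO_C5 and KO_D2 and lower in WT_4, and the groups overlapped (62.1 ± 18.6 and 78.7 ± 17.4, SD, n = 4 each; exact permutation p = 0.286).
A second, weaker peak at the canonical start site, in the 5′ part of the transcript, was listed only after IFNγ, in WT_5, KO_C5 and KO_D2. Its fold enrichment was 6.01, 5.38 and 5.51, from 16, 18 and 21 fragments at the summit. It covered the PSMB10 ISRE core, which no peak of the untreated libraries or of treated WT_4 covered.

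**Figure D1:**
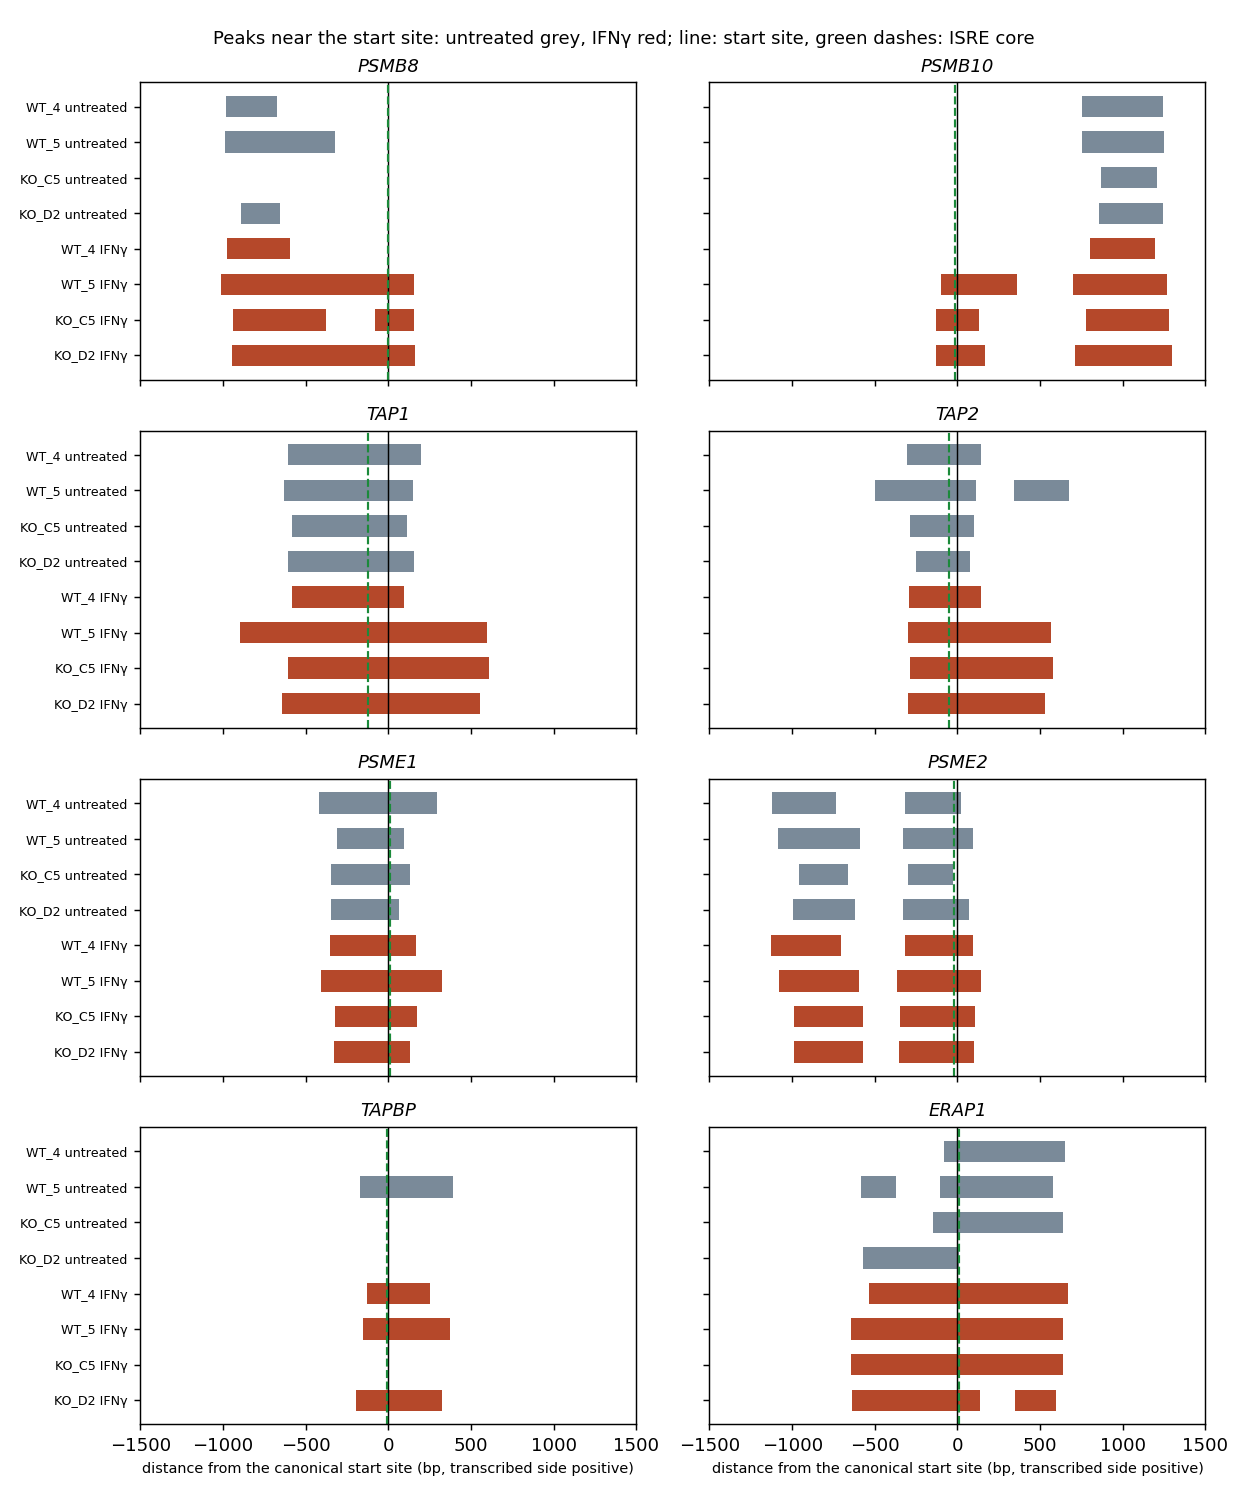
Extent of the promoter peaks near the canonical start site of 8 genes, one row per library, with distance in bp on the horizontal axis and the transcribed side positive. Grey bars are untreated and red bars IFNγ-treated libraries, the black line is the start site and the green dashes the nearest ISRE core. Peaks over the PSMB8 and PSMB10 cores appear in 3 treated and 0 untreated libraries.

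PSMB9, which takes the place of the caspase-like subunit PSMB6, and TAP1, a part of the peptide transporter, shared a single strong peak between their start sites in every library. Its fold enrichment was 63.6 in WT_4, 35.0 in WT_5, 32.3 in KO_C5 and 22.2 in KO_D2 without treatment. With IFNγ it was 28.9 in WT_4, 44.9 in WT_5, 26.6 in KO_C5 and 16.9 in KO_D2. The fold enrichment was lower after IFNγ in WT_4, KO_C5 and KO_D2 and higher in WT_5, while the median fold enrichment at common promoters also fell in WT_4, from 39.8 to 25.5. By percentile the peak was lower in WT_4 (87.8 to 76.3) and KO_C5 (82.8 to 79.9) and slightly higher in WT_5 (84.9 to 86.0) and KO_D2 (73.5 to 74.3), and the groups overlapped (82.2 ± 6.18 untreated and 79.1 ± 5.15 treated, SD, n = 4 each; exact permutation p = 0.457). Its summit lay between -98 and -60 bp from the canonical PSMB9 start in all 8 libraries.
The peak changed in length. It covered 803 bp in WT_4, 781 bp in WT_5, 701 bp in KO_C5 and 762 bp in KO_D2 without treatment, and 677, 1494, 1217 and 1199 bp in the same clones with IFNγ. In the 3 treated libraries other than WT_4 it reached 552 to 612 bp past the canonical TAP1 start into the gene, against 96 to 195 bp in the other 5 libraries. The ISRE cores of the shared promoter were covered in all 8 libraries.

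TAP2, the other part of the transporter (chr6:32821833-32838739, minus strand), had a promoter peak of higher percentile after IFNγ in each clone. Its percentile was 68.0 in WT_4, 84.2 in WT_5, 61.9 in KO_C5 and 65.5 in KO_D2 without treatment, and 84.4, 92.2, 85.3 and 79.9 with IFNγ. Untreated WT_5 lay above treated KO_D2, and otherwise the groups did not overlap (69.9 ± 9.87 and 85.5 ± 5.10, SD, n = 4 each; exact permutation p = 0.0571).
The main TAP2 peak also reached further into the gene in treated WT_5, KO_C5 and KO_D2, where it was 865, 866 and 831 bp long. In untreated WT_5 a separate peak of 329 bp lay in that place, and in the other 4 libraries the peak was 327 to 446 bp long. Another annotated gene, ENSG00000250264, starts within 1000 bp of TAP2, and its peaks cannot be told apart from those of TAP2.

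PSME1 and PSME2, the subunits of the PA28 activator, lie close to each other on chromosome 14. The PSME1 promoter was the strongest of the 10 genes after IFNγ, with percentiles of 88.3, 72.8, 87.3 and 71.6 in untreated WT_4, WT_5, KO_C5 and KO_D2 and 94.2, 93.5, 92.1 and 88.0 in the treated libraries. Each clone was higher with IFNγ, and only treated KO_D2 lay below an untreated library (80.0 ± 9.04 and 92.0 ± 2.77, SD, n = 4 each; exact permutation p = 0.0571). In fold enrichment, however, PSME1 was lower after IFNγ in WT_4, 68.3 against 57.6.
PSME2 had 2 promoter peaks in every library, both shared with the divergent gene RNF31. The percentile of the stronger was 56.8 in WT_4, 84.5 in WT_5, 43.3 in KO_C5 and 70.7 in KO_D2 without treatment and 53.2, 90.6, 89.8 and 85.6 with IFNγ, lower in WT_4 and higher in the other 3 clones (63.8 ± 17.7 and 79.8 ± 17.9, SD, n = 4 each; exact permutation p = 0.229). The proximal peak covered the PSME2 ISRE core as a whole in all libraries except untreated KO_C5, whose peak ended within it.

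TAPBP, which encodes tapasin, had the weakest promoter peaks of the genes with any. A peak was listed in untreated WT_5 at percentile 7.14 and fold enrichment 4.38, and in treated WT_4, WT_5 and KO_D2 at percentiles 0.46, 43.0 and 37.1 and fold enrichments of 3.54, 9.18 and 6.40. The treated WT_4 peak rested on 5 fragments at the summit. Untreated WT_4, KO_C5 and KO_D2 and treated KO_C5 had none (exact permutation p = 0.257).

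ERAP1, which trims peptide precursors in the endoplasmic reticulum (chr5:96760810-96808100, minus strand), was the only one of the 10 genes whose 4 IFNγ-treated libraries all had a higher percentile than its 4 untreated ones. Its percentile was 56.9 in WT_4, 46.1 in WT_5, 59.4 in KO_C5 and 7.73 in KO_D2 without treatment. With IFNγ it was 64.7 in WT_4, 69.7 in WT_5, 68.1 in KO_C5 and 63.1 in KO_D2. The treated libraries lay within a narrow range, 66.4 ± 3.04 (SD, n = 4), and the untreated ones were spread, 42.6 ± 23.9 (SD, n = 4), with KO_D2 far below the others. The exact permutation p of 0.0286 (two-sided) is the smallest that 8 libraries allow, and its adjusted p over all genes was 1.
Such a separation in favour of IFNγ was seen at 117 of the 14737 genes with a peak (0.794%). When all lists were cut to the length of the shortest, ERAP1 no longer separated. The ERAP1 peak was longer after IFNγ in each clone, 734 bp against 1203 bp in WT_4, 901 against 1281 bp in WT_5, 783 against 1279 bp in KO_C5 and 581 against 1028 bp in KO_D2, as the sum of its pieces. Its ISRE core was covered in every library except untreated KO_D2, where the peak ended within it.

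ERAP2, the second aminopeptidase, had no peak in its promoter, its gene body or the 10000 bp on either side in any of the 8 libraries, although its sequence holds an ISRE core centred at -26 bp from the start. It was the only one of the 10 genes without a listed peak.

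**Figure D2:**
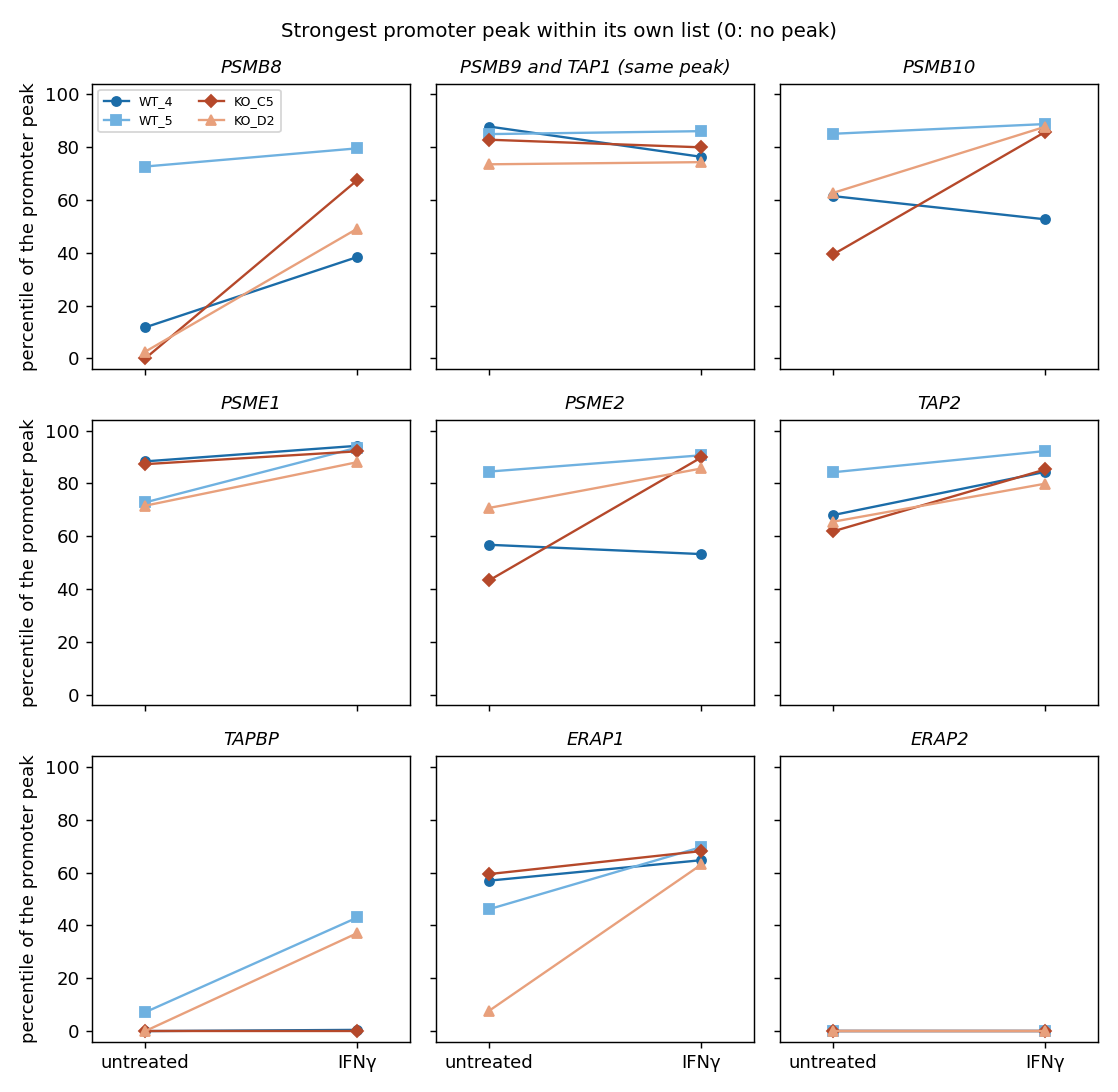
Percentile of the strongest promoter peak within its own list (vertical axis, 0 where no peak was listed) without and with IFNγ, with one line per clone; PSMB9 and TAP1 share 1 panel because they share the peak. ERAP1 is the panel in which all treated values, from 63.1 to 69.7, lie above all untreated values, and ERAP2 is at 0 throughout.

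Over the 9 genes with a peak, the percentile was higher after IFNγ in each of the 4 clones for PSMB8, PSME1, TAP2 and ERAP1, and lower in each clone for none. The same was true of 14.2% of the 14737 genes. With all lists cut to the length of the shortest, PSME2 took the place of ERAP1 among the 4, and 8.67% of all genes were higher in each clone. The median change of the 9 genes, treated mean minus untreated mean, was 16.02 percentile points, with PSMB9 and TAP1 counted at the same value, beside 2.81 over all genes. By clone it was 0.46 in WT_4, 6.88 in WT_5, 8.70 in KO_C5 and 16.5 in KO_D2, beside medians over all genes of -2.59, 3.36, 2.47 and 5.74. The clone with the smallest change of the 9 genes, WT_4, was thus also the clone in which promoters in general ranked lower after IFNγ. No gene of the 14737 passed a threshold of 0.05 after adjustment, where the lowest adjusted p was 1.

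The number of genes whose treated libraries all ranked above the untreated ones rested on single libraries. It was 1 with all libraries, 2 (PSME1 and ERAP1) without untreated WT_4, 3 (PSMB8, TAP2 and ERAP1) without untreated WT_5, 3 (PSMB10, PSME2 and ERAP1) without treated WT_4 and 3 (PSME1, TAP2 and ERAP1) without treated KO_D2. Over all genes the share moved from 0.794% to 1.97%, 5.17%, 7.2% and 1.4% in the same order. Without either WT_4 library, which removes that clone from the pairs, 6 genes (PSMB8, PSMB10, PSME1, PSME2, TAP2 and ERAP1) were higher in each remaining clone, as were 42.3% of all genes without untreated WT_4 and 41.5% without treated WT_4.

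Fold enrichment was compared with limma at the 10395 genes with a promoter peak in all 8 libraries, after centring each library on its median log2 fold enrichment; 7 of the 10 genes qualified. The difference in log2 fold enrichment with IFNγ was 0.58 ± 0.36 (SE) at PSMB10, 0.46 ± 0.30 at PSME1, 0.71 ± 0.39 at PSME2, 0.59 ± 0.22 at TAP2 and 0.66 ± 0.35 at ERAP1, and -0.38 ± 0.19 at the peak shared by PSMB9 and TAP1. Each of these had an adjusted p of 0.866. limma called 0 of 10395 genes (0%) for IFNγ, with 293 genes at an unadjusted p under 0.05, among which TAP2 was the only one of the 7. The median over the 7 genes was 0.58, beside -0.08 over all genes tested, whose SD was 0.31. With the clone as a replicate block, the adjusted p of the 7 genes fell to between 0.244 and 0.276 and limma called 1 gene of all, IL15RA, with a difference of 1.99 and an adjusted p of 0.0111. Unadjusted, the limma p of the 7 genes lay between 0.011 and 0.036 with the block, where 1747 of the 10395 genes were under 0.05. These 7 include PSMB9 and TAP1, whose shared peak was lower with IFNγ.

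**Figure D3:**
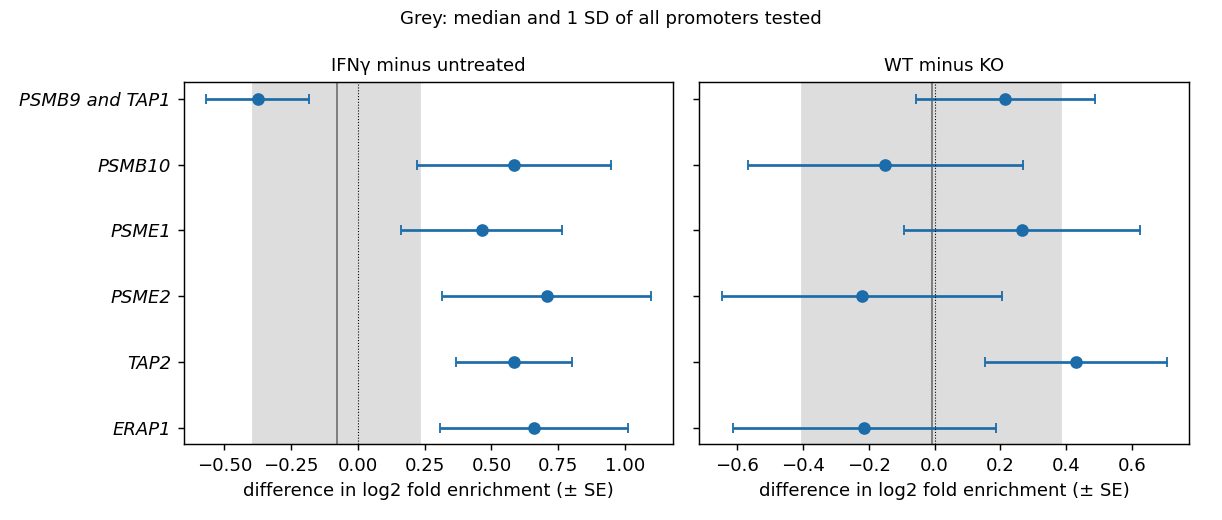
limma estimates of the difference in log2 fold enrichment (horizontal axis, points with SE) at the promoters with a peak in all 8 libraries, for IFNγ minus untreated and for WT minus KO. The grey line and band are the median and 1 SD of the 10395 promoters tested; PSMB10, PSME1, PSME2, TAP2 and ERAP1 lie to the right of the band for IFNγ, from 0.46 to 0.71.

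The genotypes did not separate at any of the 10 genes. In no case did the 4 WT libraries all rank above the 4 KO libraries, which occurred at 5.99% of genes, or the KO above the WT libraries, which occurred at 0.224%. The mean percentile of the WT libraries exceeded that of the KO libraries by 20.8 points at PSMB8, 9.77 at ERAP1, 9.07 at TAP2, 6.13 at PSMB9 and TAP1, 3.37 at TAPBP, 3.05 at PSMB10 and 2.47 at PSME1, and was 1.11 points below it at PSME2 (WT minus KO, -1.11). Their median of 6.13 compares with 4.33 over all genes. Over the 6 assignments of 4 clones the smallest possible p is 0.333, which was reached at PSMB9, TAP1 and TAP2. Without treated WT_4, the peak shared by PSMB9 and TAP1 ranked higher in all WT than in all KO libraries, as did 13.9% of all genes.
On the log2 scale the WT minus KO difference was 0.43 ± 0.28 at TAP2, 0.27 ± 0.36 at PSME1, 0.22 ± 0.27 at PSMB9 and TAP1, -0.15 ± 0.42 at PSMB10, -0.21 ± 0.40 at ERAP1 and -0.22 ± 0.43 at PSME2, and limma called 0 of 10395 genes (0%), with 601 at an unadjusted p under 0.05. The IFNγ difference in KO clones minus that in WT clones was 1.10 ± 0.73 at PSMB10, 0.81 ± 0.78 at PSME2, 0.10 ± 0.70 at ERAP1, -0.11 ± 0.39 at PSMB9 and TAP1, -0.28 ± 0.43 at TAP2 and -0.63 ± 0.60 at PSME1. For this difference too limma called 0 of 10395 genes (0%), and 76 had an unadjusted p under 0.05. A response that is larger or smaller in the knockout clones was thus not detectable at these promoters with 2 clones per genotype.

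Peaks were next followed over the ISRE cores themselves, a comparison added after the peaks had been seen. The core nearest the start was covered in more treated than untreated libraries at PSMB8, PSMB10, PSME2, TAPBP and ERAP1, and in fewer at none of the 10 genes. At PSME2 and ERAP1 this rested on untreated KO_C5 and untreated KO_D2, respectively, whose peaks ended within the core. Over the 1985 genes with a core within 500 bp of the start, 15.5% were covered in more treated libraries. PSMB8 and PSMB10 were covered only in treated libraries, as were 6.3% of the 1985. At PSMB9, TAP1, PSME1 and TAP2 the core was covered in all 8 libraries and at ERAP2 in none. Other motifs within 500 bp of the start were counted too. Among the 10 genes, GGGCGG was covered in more treated libraries at 4 of 9 and in fewer at 0, beside 13.3% of 15348 genes. For TTAGGG it was 2 of 5, with 1 in fewer, beside 13.7% of 5541. For CCAAT it was 1 of 8, with 0 in fewer. Whether the gain in covered cores is particular to the ISRE was not tested.

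In the gene bodies and the 10000 bp around them, the peaks of the 8 lists joined into 18 regions, of which 11 were present in all 8 libraries. Of the 18, 10 lay at promoters of the 10 genes, 6 at promoters of their neighbours LCAT, EMC9, RGL2, ZBTB22 and DAXX, and 2 had no protein-coding start within 1000 bp. Untreated WT_4, WT_5, KO_C5 and KO_D2 held 12, 16, 11 and 12 of the regions, and the treated libraries of the same clones 13, 18, 14 and 15. A peak was present in more treated than untreated libraries at 5 regions, which were the PSMB8, PSMB10 canonical and TAPBP promoters, 1 of the RGL2 promoter regions and a site 1811 bp from a PSMB10 start, and in fewer at none. This was the case at 46.7% of the 52105 regions joined across the genome, many of which were found in few libraries. No region was present in all 4 libraries of a treatment or genotype and absent from the other 4.
Of the 2 regions without a protein-coding start, the one beside PSMB9 (chr6:32861211-32861810) was present in both WT_5 libraries alone, at percentiles of 30.8 without and 15.5 with IFNγ. The one beside PSMB10 (chr16:67938511-67938746) was present in treated WT_5 alone, at percentile 11.8. Both thus rest on 1 clone.

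Lengthening after IFNγ was examined over the 11551 regions with a peak in all 8 libraries, also after the lengths had been seen. The regions of the PSMB9-TAP1 promoter, the ERAP1 promoter and the RGL2 promoter next to TAPBP were at least 1.5 times longer with IFNγ in at least 3 clones, 3 of the 11 regions of these genes, beside 1.6% of regions over the genome. The length with IFNγ divided by that without, at the PSMB9-TAP1 region, was 0.843 in WT_4, 1.91 in WT_5, 1.74 in KO_C5 and 1.57 in KO_D2. At ERAP1 it was 1.64, 1.42, 1.63 and 1.77. The median ratio over all such regions was 0.896 in WT_4, 1.10 in WT_5, 1.13 in KO_C5 and 1.10 in KO_D2, so that treated WT_4 had shorter peaks in general.

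**Figure D4:**
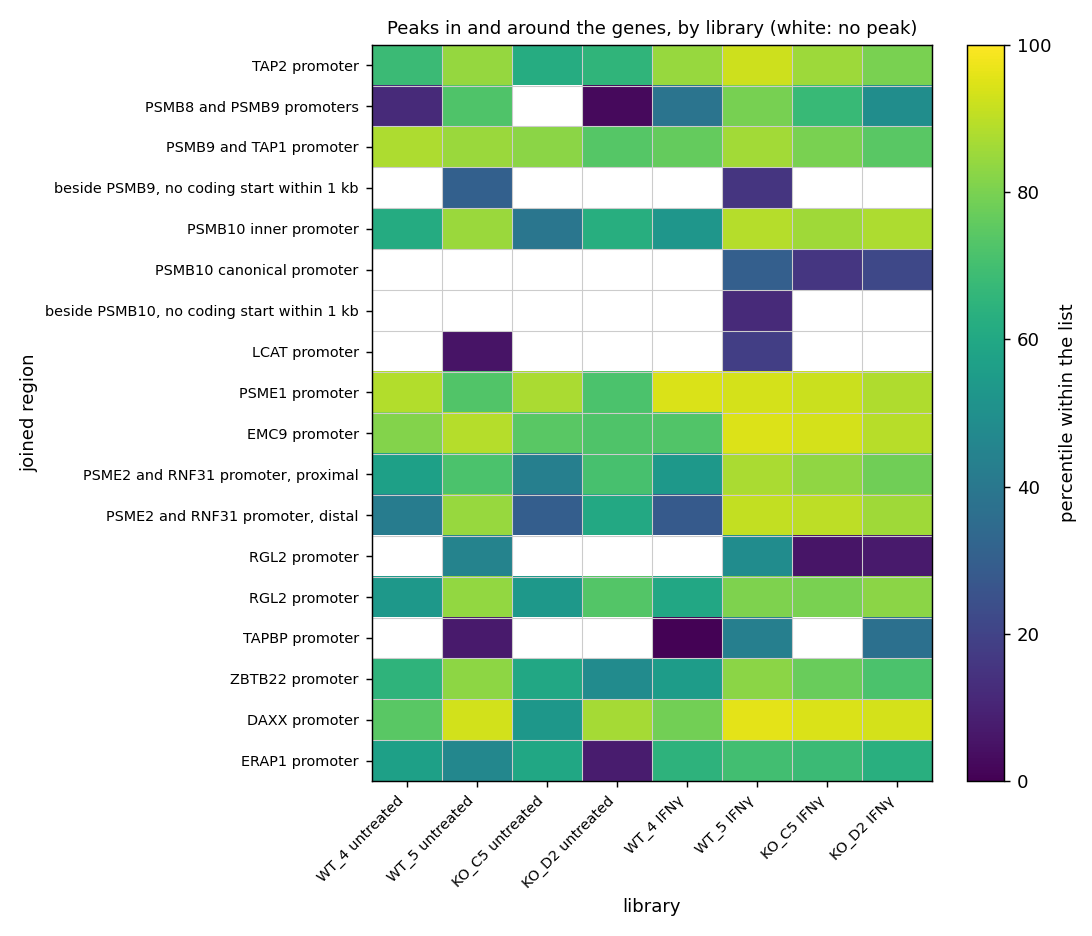
Percentile within the list (colour) of the 18 joined regions in and around the 10 genes, one row per region and one column per library; white cells have no peak. The PSMB10 canonical promoter has a peak in 3 treated and 0 untreated libraries, and the regions beside PSMB9 and PSMB10 have peaks in WT_5 libraries alone.

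Among the constitutive subunits, PSMB6 and PSMB7 ranked highest in untreated WT_5 and treated WT_5, KO_C5 and KO_D2, as did PSMB8, PSMB10 and PSME2. These libraries were also those with the longest lists, of 29567, 37533, 27457 and 24727 peaks. The peak of PSMB9 did not share this order of libraries and ranked highest in untreated WT_4, at 87.8. PSMB7 had a percentile of 0, 83.2, 13.0 and 47.2 in untreated WT_4, WT_5, KO_C5 and KO_D2 and 40.3, 84.0, 83.1 and 78.9 in the treated libraries, higher in each clone like PSMB8. PSMB6 had a promoter peak in untreated WT_5 and in treated WT_5, KO_C5 and KO_D2, and PSMB5 in untreated WT_5 and treated WT_5 and KO_D2. All 6 genes of that list (PSMB5, PSMB6, PSMB7, PSME3, PSME4 and POMP) had a higher mean percentile with IFNγ. Their median change was 8.98 points, beside 2.81 over all genes, and at PSME4 the change was only 0.28 points. The treated mean was also higher at 73.1% of the genes with a peak in all 8 libraries. How far the order of libraries seen at PSMB7 and PSMB6 entered the changes at PSMB8, PSMB10 and PSME2 was not tested.

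Among the 23 other genes of the pathway examined, 11 had a promoter peak in more treated than untreated libraries and 1, TAPBPL, in fewer. Of the 14737 genes with a peak, 16.3% had one in more treated libraries. The treated libraries all ranked above the untreated ones at 4 of the 23, beside 0.794% of the 14737 genes. The 4 included the non-classical class I gene HLA-E and the regulators NLRC5 and CIITA. CIITA, the class II transactivator, had no peak in any untreated library and percentiles of 22.8, 55.0, 23.4 and 19.7 in treated WT_4, WT_5, KO_C5 and KO_D2. The KO_C5 value came from a peak at another CIITA start, 45276 bp from the canonical one, and at the site of the other 3 libraries, 1686 to 1780 bp from it, KO_C5 had a percentile of 7.81. NLRC5, the class I transactivator, had percentiles of 44.05, 65.8, 61.0 and 0 in the untreated and 84.1, 91.3, 87.1 and 87.9 in the treated libraries. Treated WT_4 therefore showed the difference at CIITA and NLRC5 while lacking the peaks over the PSMB8 and PSMB10 cores.
B2M, the light chain of class I molecules, was higher in each clone, at 27.7, 77.7, 0 and 41.1 without and 36.1, 78.5, 70.8 and 78.8 with IFNγ. HLA-B had a peak in untreated WT_5 and in treated WT_5, KO_C5 and KO_D2. These peaks lay near another annotated start, with summits -9886 to -9849 bp from the canonical one. Near the canonical start only treated KO_D2 had a peak, at percentile 28.9. The 6 class I genes had a median change of 26.8 points. The 7 other loading and trimming genes, which include CALR, CANX and PDIA3, had a median change of 3.13 points, and none was higher or lower in each of the 4 clones. None of the 23 genes separated by genotype.

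By the profile of percentiles over the 8 libraries, the promoters most like ERAP1 were those of IL11, TRIM14 and DAB2IP, with mean absolute differences of 4.74, 5.00 and 5.86 percentile points. TRIM14 ranked at 7.01 in untreated KO_D2, as low as ERAP1 there, and at 56.0 to 77.5 in the treated libraries. No profile was sought for the other genes, whose groups overlapped.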

How the data were processed

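Open chromatin was mapped by FAIRE-seq in 8 libraries of U2OS clones, grouped by the genotype, clone and treatment in the labels. The authors trimmed reads with Trimmomatic, aligned them to GRCh38 with Bowtie2 2.2.5, removed low mapping qualities with SAMtools 1.14 and called peaks in each library with MACS2 2.2.7.1. The control for peak calling and the treatment of duplicates are not given in the sources used here. The deposited lists give each peak's fold enrichment over the local background, a ratio, with its -log10 p and -log10 q, as the authors' peak caller wrote them, and the summit offset. The deposited score column repeats the -log10 q and was not used. No reproducibility filter had been applied to these lists.

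Peaks were assigned to genes of GENCODE 44. A promoter was 1000 bp either side of any start site of a gene, and the peak with the highest -log10 p was taken. Its percentile was the share of the list's peaks with an equal or lower -log10 p. Percentiles were compared by exact permutation over the 70 assignments of libraries (smallest p 0.0286) or the 6 of clones (smallest p 0.333), and log2 fold enrichment with limma 3.58.1 in R 4.3.3 on the 4 groups, or on clone means for genotype. p-values were adjusted over all genes by Benjamini-Hochberg at a threshold of 0.05. Nothing says that libraries are more than 1 culture per clone and treatment, so the tests measure the spread among these clones. The permutation over libraries does not pair treated with untreated libraries by clone. Its spread therefore includes differences between clones. The summit fragments were recovered from the fold enrichment and -log10 p, and came out whole within 0.01 in -log10 p for 100% of peaks.

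The 2 libraries of a clone come from the same clone by the labels, and their deviations from the group means correlated at 0.737 in the WT and 0.412 in the KO clones, so the clone was used as a block in an alternative. The text names all 10 genes, pathway genes that differed, and the 3 genes most like any of the 10 whose groups separate. Genes, lists and comparisons were chosen with earlier results of these data known. The steps were tested on simulated data. Some genes of the fixed lists are not reported here.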

Additional observations from a re-analysis of the deposited data

How the results depend on the processing

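With 2 clones per genotype and 4 libraries per treatment, no gene could be called from percentiles after adjustment, so unchanged calls say little about stability. The IFNγ differences of the 9 genes with a peak kept their sign, but not their size, under all alternatives run. These were 17 per gene for percentiles and 16 for log2 fold enrichment, or 153 and 112 values over the genes tested. PSMB9 and TAP1, which share a peak, are each counted. The replicate block leaves the difference itself unchanged, so it could not alter a sign. With lists of equal length the percentile difference was 1.76 in place of 18.4 at TAPBP and -10.1 in place of -3.10 at PSMB9 and TAP1. Leaving out single libraries it ranged from 12.2 to 29.4 at ERAP1, 9.01 to 25.3 at PSMB10, 9.19 to 24.9 at PSME2, 29.7 to 53.9 at PSMB8, 10.7 to 25.1 at TAPBP and -6.02 to -1.26 at PSMB9 and TAP1, with the lowest values at ERAP1 without untreated KO_D2 and at PSMB10 and PSME2 without untreated KO_C5. The log2 difference ranged from 0.16 to 0.76 at PSME1, 0.32 to 0.98 at ERAP1, 0.28 to 0.88 at PSMB10 and 0.39 to 1.02 at PSME2. With the clone as a replicate block, sign flips of the 4 clones gave an exact p of 0.125, their smallest, at PSMB8, PSME1, TAP2 and ERAP1, and limma called 1 gene (IL15RA) in place of 0, for IFNγ over all clones and in the WT clones alone; no call for the 10 genes changed with the block.

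The number of the 10 genes with all treated libraries above all untreated ones was 1, but 2 with a -log10 q of at least 3 (PSME1 and ERAP1), 0 with lists of equal length, and 1 to 3 when single libraries were left out. Leaving out single libraries gave 1 to 2 genes with a peak in more treated libraries, 4 to 6 genes higher in each clone, where the share of all genes moved from 14.2% to as much as 42.3%, and 0 to 2 genes with all WT above all KO libraries, where it moved from 5.99% to 13.9%. Without centring, limma called 1 gene (IL15RA) for IFNγ and 4 (POP4, C19orf12, RPL39L and ZNF324B) for WT against KO, and the median WT minus KO difference of all genes moved from -0.01 to 0.57. Counting gene bodies alone, which covers less sequence, left 11 joined regions in place of 18, and 3 in place of 5 with a peak in more treated libraries.

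Counted over genes and alternatives, 25 values of the WT minus KO difference changed sign. These were 15 for percentiles, where 129 kept it, and 10 for log2 fold enrichment, where 95 kept it. The cause was not tested. With lists of equal length the percentile difference was -1.72 at PSMB10, -2.64 at PSME1, -1.76 at TAPBP and -3.30 at ERAP1, and ranking by fold enrichment gave 0.83 at PSME2. Without centring the log2 difference was 0.43 at PSMB10, 0.36 at PSME2 and 0.36 at ERAP1, and with summit fragments in place of fold enrichment it was -0.23 at PSME1 and 0.070 at ERAP1. Leaving out single libraries, the percentile difference ranged from -8.55 to 14.7 at PSMB10, -2.71 to 7.65 at PSME1, -12.7 to 10.5 at PSME2, -5.90 to 12.6 at TAPBP and -4.06 to 23.6 at ERAP1. The log2 difference ranged from -0.55 to 0.26 at PSMB10, -0.024 to 0.56 at PSME1, -0.67 to 0.23 at PSME2 and -0.53 to 0.10 at ERAP1.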
